A study of Mus musculus with 24 samples.

Results

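The comparison covers WT CD4+ T cells 6 h after stimulation against unstimulated cells. Its members are 6 of the 24 libraries of the series, chosen by the column names of the deposited count table. They are 3 libraries of 6 h and 3 of 0 h, paired by the number in the column name. That number is taken here to mark the mouse (WT 1, WT 3 and WT 4). The cells were CD4+ T cells from the spleens of C57BL6 mice of genotype WT, held in RP10 medium and stimulated with anti-CD3/CD28 antibodies for 6 h or left unstimulated. The labels give no age of the mice, and the other groups of the series are WT cells of 3 h and 24 h and Aim2-/- cells of the same 4 time points. The series has no unstimulated cells at 6 h, so effects of the antibodies and of 6 h in culture cannot be told apart. The general methods describe isolation by immunomagnetic negative selection, which leaves resting, memory and regulatory CD4+ T cells together, so a bulk value cannot tell fewer cells of a type apart from less RNA per cell.

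Antibodies to CD3 and CD28 stand in for antigen and its costimulation. They start calcium entry and kinase cascades that bring the factors NFAT, AP-1 and NF-kB to cytokine genes, and they lift MYC, which drives ribosome production and the synthesis of nucleotides and amino acids before the first cell division. A resting CD4+ T cell keeps its small size through factors such as KLF2 and FOXO1, which also hold up the receptors that guide it through lymphoid organs. The hours before the first division are therefore a time when secretion, growth and homing genes are read together.

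The libraries held from 20400995 to 21627018 counts each. A gene with 3 counts, taken as the floor of detection, lay between 0.133 and 0.155 CPM (a gene's counts relative to library totals scaled by TMM, which corrects for a few genes that take up many reads). Of the variance of log2 CPM over these 6 libraries, the first principal component carried 67.6% and set 6 h apart from 0 h. The second carried 15.5% and set both libraries of the mouse labelled WT 1 (39.3 and 41.8) apart from the other 4 (from -24.8 to -15.3). That mouse also goes against its label in the targeted gene, Aim2, a cytosolic sensor of DNA: at 0 h Aim2 was at 21.5, 74.95 and 67.5 CPM in the mice labelled WT 1, WT 3 and WT 4, an order kept below wherever 3 values follow each other. At 6 h Aim2 was at 11.5, 32.99 and 32.5 CPM, lower than at 0 h in each mouse (log2 fold change -1.06, SE 0.16, adjusted p 1.0e-05, a call lost without the mouse as a block), and Aim2-/- cells had 18.2 ± 2.29 CPM at 0 h (SD, n = 3). Results are therefore given for all 3 mice. The effect of leaving out the mouse labelled WT 1 is stated for all genes together, and for some of the lists and genes only.

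Markers of CD4+ T cells were present in every library, with Cd3e, a chain of the T cell receptor complex, at 499, 548 and 549 CPM at 0 h and at 538, 551 and 545 CPM at 6 h. The CD8 chain Cd8a reached no more than 0.827 CPM. The other CD8 chain, Cd8b1, was at 10.7, 9.35 and 11.3 CPM at 0 h. At 6 h Cd8b1 was at 8.86, 7.3 and 7.45 CPM. The summed level of 10 CD4+ T cell markers was 6129 ± 148 CPM at 0 h and 5785 ± 223 CPM at 6 h (SD, n = 3; exact permutation test over libraries, two-sided, p = 0.2, where 0.1 is the smallest p that 3 libraries against 3 allow). The 11 summed B cell markers were 1124 ± 525 CPM and 960.1 ± 544 CPM (SD, n = 3; exact p = 0.6), most of it immunoglobulin transcripts, and the mouse labelled WT 1 was highest at both times with 1717 and 1582 CPM. Ebf1, a defining B cell factor, was the only 1 of these 11 markers at or under the floor in all 6 libraries. Cd79b, another marker of the list, was at 2.30, 1.81 and 1.88 CPM at 0 h. At 6 h Cd79b was at 4.87, 2.58 and 2.43 CPM.

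After 6 h the relative level of most genes tested had changed. A gene is described as called, or as having risen or fallen, when its adjusted p in edgeR's quasi-likelihood F test with the mouse as a block was under 0.05, after Benjamini and Hochberg over the 15325 genes tested. By this rule 9071 genes (59.2%) differed, 4606 higher (30.1%) and 4465 lower (29.1%). Changes of more than 1 on the log2 scale were made by 1993 genes upward (13%) and 1572 downward (10.3%), and 2422 of the called genes changed by less than 0.5. The CPM of the groups did not overlap in 9135 genes (59.6%), and 8965 of the called genes moved the same way in each of the 3 mice. Without the mouse labelled WT 1, 8158 genes were called, 7884 of them shared with the full set and none of those in the opposite direction. Scaling by library totals alone raised the share of rises among the called genes from 50.8% to 57.3%. Levels are relative to the scaled library total, so the balance of rises and falls depends on the scaling. The amount of RNA per cell was not measured, and a fall need not mean less of it.

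**Figure D1:**
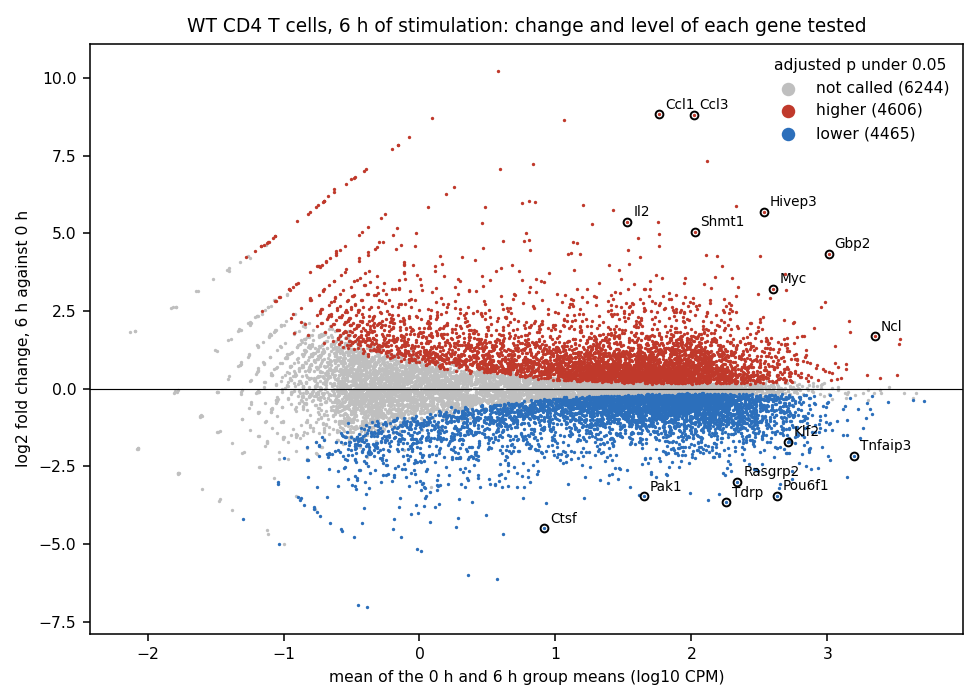
Change and level of the genes tested in WT CD4+ T cells. The x axis gives the mean of both group means in log10 CPM and the y axis the fitted log2 fold change of 6 h against 0 h, each point being 1 gene, coloured by its call. Rises reach higher values than falls, with Ccl1 and Ccl3 near 8.8 and Ctsf at -4.50 among the labelled genes, and 10 genes without a count in either group are not drawn.

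The size of the response was alike in the 3 mice. The absolute log2 ratio of 6 h to 0 h, averaged over all genes tested, was 0.728 in the mouse labelled WT 1, 0.788 in WT 3 and 0.758 in WT 4. Changes above 3 on the log2 scale were made by 233 rises and 94 falls. The genes at or under the floor in all libraries of 0 h included 200 that were called higher at 6 h, and those at or under it at 6 h included 65 that were called lower. Of the 12654 protein-coding genes tested, 4160 rose and 4043 fell, and of 391 lincRNAs, which are long noncoding transcripts between genes, 111 rose and 69 fell.

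The 15 largest rises among genes with at least 10 CPM on average at 6 h included 8 chemokine and cytokine genes, 3 enzyme genes, and Crabp2, Fosl1, Sema7a and Hivep3. Ccl3 (MIP-1 alpha, an inflammatory chemokine) was at 0.4998, 0.413 and 0.456 CPM at 0 h and at 200.2, 158 and 263 CPM at 6 h (log2 fold change 8.81, SE 0.39, adjusted p 1.2e-13). Its neighbour on chromosome 11, Ccl4 (MIP-1 beta), went from 0.7496, 2.38 and 1.67 CPM to 264, 219 and 299 CPM (log2 fold change 7.34, SE 0.37, adjusted p 8.2e-13). Ccl1, a ligand of CCR8, stood at 0.2499, 0.207 and 0.304 CPM at 0 h, that is at 4 to 6 counts, and at 168, 76.9 and 103 CPM at 6 h (log2 fold change 8.84, SE 0.52, adjusted p 7.3e-12). For all 3 of these chemokines the lowest library of 6 h lay far above the highest of 0 h. Crabp2, a carrier of retinoic acid, had 1 count in each library of 0 h and 18.3, 29.3 and 21.1 CPM at 6 h, which makes it at least 150-fold higher.

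Ccl22, a ligand of CCR4, rose from 0.1999, 0.207 and 0.203 CPM to 6.12, 18.5 and 17.03 CPM, lowest at 6 h in the mouse labelled WT 1. Fosl1, an AP-1 subunit, was at 0.8496, 0.155 and 0.507 CPM and then at 26.1, 37.3 and 30.6 CPM (log2 fold change 5.93, SE 0.37, adjusted p 1.2e-11). Among surface proteins Sema7a, a semaphorin anchored in the membrane, rose from 9.65, 6.199 and 5.57 CPM to 429, 426 and 401 CPM (log2 fold change 5.89, SE 0.32, adjusted p 2.2e-12). Hivep3, a zinc finger protein, rose from 13.8, 11.003 and 13.7 CPM to 760.4, 679.8 and 567 CPM (log2 fold change 5.69, SE 0.22, adjusted p 3.0e-14). The enzyme genes among the 15 largest rises were Akr1c18, which breaks down progesterone (log2 fold change 6.00), Bcat1, which breaks down branched-chain amino acids (5.37), and Shmt1, the cytosolic serine hydroxymethyltransferase of one-carbon metabolism, at 6.25, 6.87 and 5.52 CPM before and 191, 227 and 198 CPM after stimulation (log2 fold change 5.05, SE 0.20, adjusted p 4.0e-14).

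Genes with the largest falls were of mixed function. Ctsf, a lysosomal cysteine protease, fell from 14.2, 15.8 and 17.5 CPM to 0.798, 0.487 and 0.827 CPM (log2 fold change -4.50, SE 0.29, adjusted p 2.8e-11). Hey1, a repressor downstream of Notch, fell from 16.1, 12.8 and 18.3 CPM to 1.46, 0.7298 and 1.46 CPM (log2 fold change -3.69, SE 0.27, adjusted p 1.5e-10). Pak1, a kinase that acts on the cytoskeleton, was at 81.01, 82.9 and 83.6 CPM at 0 h and 6.47, 7.15 and 8.86 CPM at 6 h (log2 fold change -3.47, SE 0.11, adjusted p 9.1e-15). Pou6f1, a POU homeobox factor, was at 606, 889 and 855 CPM and 73.9, 65.2 and 75.5 CPM, and Rasgrp2, an exchange factor that activates Rap1 in integrin adhesion, at 319, 436 and 408 CPM and 41.6, 49.7 and 53.2 CPM (log2 fold change -3.01, SE 0.12, adjusted p 3.3e-14). Ramp3, a partner of the calcitonin receptor-like receptor, fell from 680.2, 901 and 839 CPM to 83.9, 93.5 and 110.1 CPM (log2 fold change -3.08, SE 0.16, adjusted p 9.4e-13). The remaining falls of this rank were Tdrp (-3.66), Atp8a2 (-3.51), Cyp2d22 (-3.42), St8sia6 (-3.39), Arl5c (-3.35), Rflnb (-3.18), Khdrbs3 (-3.18), Lgmn (-3.03) and Adh1 (-3.01). In each of these 15 genes the 3 libraries of 6 h lay below the 3 of 0 h, since the choice asked for it.

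**Figure D2:**
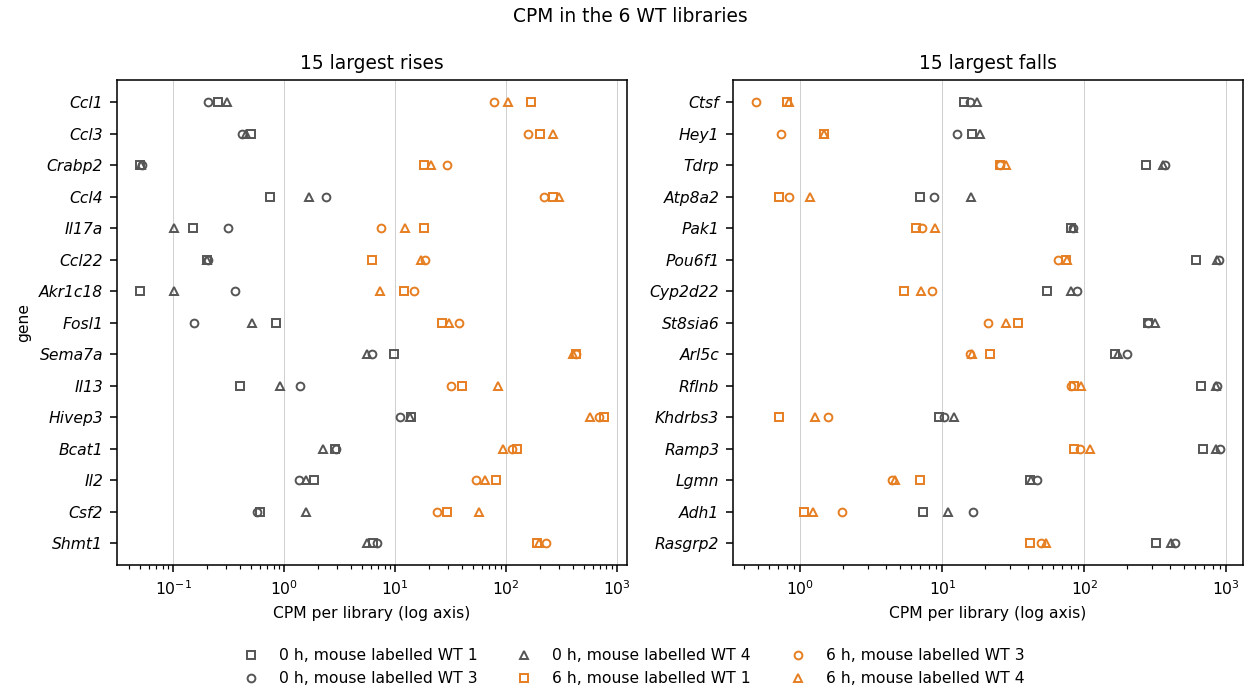
Levels of the 15 largest rises and 15 largest falls in each of the 6 WT libraries. The x axis gives CPM on a log axis, grey symbols are 0 h, orange symbols are 6 h, and the symbol shape marks the mouse. The groups do not overlap in any of the 30 genes, which the choice of the genes required, and Ccl22 of the mouse labelled WT 1 (6.12 CPM) lies below that of the other mice at 6 h.

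Gene lists written from general knowledge give the response by function. The counts of each are to be read against all genes tested, of which 30.1% rose and 29.1% fell. Of 24 T helper and growth cytokines tested, 12 rose (50%) and 3 fell (12.5%), with a median log2 fold change of 1.76 against 0.018 over all genes. Il2, the growth factor of T cells, rose from 1.85, 1.34 and 1.57 CPM to 80.5, 53.2 and 64.2 CPM (log2 fold change 5.37, SE 0.24, adjusted p 1.2e-13). Csf2 (GM-CSF) rose from 0.5997, 0.568 and 1.57 CPM to 29.5, 23.7 and 56.4 CPM (log2 fold change 5.31, SE 0.22, adjusted p 5.1e-14). Ifng, the leading Th1 cytokine, was at 16.04, 9.81 and 15.9 CPM at 0 h and 99.1, 63.1 and 121 CPM at 6 h (log2 fold change 2.75, SE 0.25, adjusted p 4.9e-09). Il13, a Th2 cytokine, went from 0.3998, 1.39 and 0.912 CPM to 39.6, 31.7 and 83.7 CPM, and Il17a, a Th17 cytokine, from 0.1499, 0.3099 and 0.101 CPM to 18.2, 7.44 and 12.2 CPM, so that cytokines of each of these helper classes rose in the same cultures.

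Il3, a growth factor of blood cells, had no count at 0 h and 11.9, 2.92 and 7.93 CPM at 6 h, at least 49.7-fold higher. Its highest value at 6 h was in the mouse labelled WT 1 and its lowest in WT 3. Il10, an inhibitory cytokine, moved the other way, from 46.3, 21.95 and 18.8 CPM to 25.6, 6.96 and 8.905 CPM (log2 fold change -1.18, SE 0.21, adjusted p 5.1e-05), a call that was lost without the mouse block. Areg, a ligand of the EGF receptor, fell as well, by 0.77 on the log2 scale.

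Of 15 chemokines tested, 12 rose (80%) and 1 fell (6.67%), with a median of 2.91. Besides the genes above, Ccl5 (RANTES), a chemokine of effector and memory T cells, was the 1 that fell, from 160.2, 118 and 129 CPM to 64.5, 50.8 and 60.5 CPM (log2 fold change -1.21, SE 0.15, adjusted p 4.3e-07). Without the mouse labelled WT 1, 10 chemokines were called higher. Among 14 ligands of the TNF superfamily, 9 rose (64.3%) and 1 fell (7.14%), with a median of 1.02, and 7 rose and none fell without that mouse. Tnf itself rose from 37.3, 26.7 and 30.1 CPM to 363, 366 and 377 CPM (log2 fold change 3.56, SE 0.16, adjusted p 2.4e-13). Cd40lg, which licenses B cells and dendritic cells, rose from 137, 88.4 and 99.7 CPM to 257, 242 and 255 CPM (log2 fold change 1.23, SE 0.16, adjusted p 9.6e-07), and Tnfsf14 (LIGHT) by 3.20. Tnfsf4 (OX40 ligand) fell by 0.67, from 10.6, 4.18 and 7.04 CPM to 4.83, 3.99 and 4.43 CPM, values that lay close to each other in WT 3.

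Promoter sequence is shown for 3 of the cytokine and chemokine genes with the largest rises, because NFAT acts on the Il2 promoter. The 3 were picked as examples that hold the NFAT core, which the windows of Ccl22 and Il17a, also among these rises, do not. Each run holds the 250 bases before the RefSeq start of transcription, 5′ to 3′ on the strand of the gene (GRCm38.p6), and capitals mark letters of the NFAT core GGAAA, of an NF-kB pattern GGGA, then NNNN, then CC, of an AP-1 pattern TGANTCA or of the E-box CACGTG on either strand.
Il2: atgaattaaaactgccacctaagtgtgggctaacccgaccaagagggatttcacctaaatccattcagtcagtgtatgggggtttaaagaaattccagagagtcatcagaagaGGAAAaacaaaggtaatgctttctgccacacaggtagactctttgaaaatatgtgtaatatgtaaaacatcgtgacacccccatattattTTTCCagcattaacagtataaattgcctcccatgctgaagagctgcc
Il13: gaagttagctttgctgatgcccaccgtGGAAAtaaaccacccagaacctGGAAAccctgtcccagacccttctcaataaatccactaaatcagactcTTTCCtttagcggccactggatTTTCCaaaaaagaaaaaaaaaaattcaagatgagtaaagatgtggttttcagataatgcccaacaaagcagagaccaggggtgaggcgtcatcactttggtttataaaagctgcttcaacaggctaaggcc
Ccl1: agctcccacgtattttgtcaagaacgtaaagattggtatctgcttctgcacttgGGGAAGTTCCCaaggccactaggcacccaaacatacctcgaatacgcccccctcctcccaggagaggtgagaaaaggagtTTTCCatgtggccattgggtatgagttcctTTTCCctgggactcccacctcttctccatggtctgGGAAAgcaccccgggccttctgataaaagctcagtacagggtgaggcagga

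The Il2 window (chr3:37125955-37126204, minus strand) held the NFAT core at 2 places, starting at bases -137 and -47 from the start. The window of Il13 (chr11:53634703-53634952, minus strand) held it at -223, -201, -153 and -131, and that of Ccl1 (chr11:82179813-82180062, minus strand) at -116, -86 and -51, beside an NF-kB pattern that reads at -196 and, in the other direction, at -195. Counted over windows of 300 bases that also take in the first 50 transcribed bases, the NFAT core was in 19 of 22 windows (86.4%) of the cytokine list and in 9 of 12 (75%) of the chemokine list, against 59.3% of 13486 windows of genes tested. So short a pattern is found in most promoters of any kind, and the share among genes that rose by more than 1 was 61.1%. The AP-1 pattern was in 5 of 22 cytokine windows (22.7%) and 3 of 12 chemokine windows (25%), against 5.25% of those of genes tested. An NF-kB pattern was in 8 (36.4%) and 6 (50%) of them, against 26.2%. Windows of genes that rose by more than 1 held the AP-1 pattern in 6.64% and an NF-kB pattern in 25.3%. For genes that fell by more than 1 these shares were 5.72% and 27.3%. These shares are descriptions of letters, and no test was made of them. Windows were on record for 20 of 24 cytokine genes and 11 of 15 chemokine genes tested.

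Of 31 cytokine receptors tested, 7 rose (22.6%) and 15 fell (48.4%), against 30.1% and 29.1% of all genes (median -0.38). Il2ra (CD25), the chain that gives the IL-2 receptor its high affinity, rose from 92.5, 84.5 and 124 CPM to 948, 852 and 881 CPM (log2 fold change 3.17, SE 0.14, adjusted p 1.4e-13). Il12rb1, a chain of the IL-12 and IL-23 receptors, rose from 10.6, 6.72 and 7.197 CPM to 99.3, 105 and 102 CPM (log2 fold change 3.66, SE 0.24, adjusted p 2.9e-11), and Il15ra from 6.797, 4.597 and 3.24 CPM to 57.4, 58.7 and 51.04 CPM (log2 fold change 3.52, SE 0.22, adjusted p 1.9e-11). In the other direction Il7r, which carries the survival signal of resting T cells, fell from 969, 894 and 972 CPM to 163, 123 and 167 CPM (log2 fold change -2.66, SE 0.15, adjusted p 3.0e-12). Ifngr2, the signalling chain of the interferon-gamma receptor, fell from 197, 333 and 259 CPM to 45.1, 58.1 and 72.3 CPM (log2 fold change -2.16, SE 0.14, adjusted p 1.8e-11).

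Of 18 receptors of the TNF family 8 rose (44.4%) and 5 fell (27.8%), the latter share near the 29.1% of all genes and the former above 30.1%. Tnfrsf9 (4-1BB), a costimulatory receptor of activated T cells, rose from 229, 174 and 229 CPM to 959.8, 861 and 877 CPM (log2 fold change 2.10, SE 0.12, adjusted p 4.1e-12), and Tnfrsf21 by 2.98. Tnfrsf1b (TNFR2) fell from 859.9, 782 and 874 CPM to 453, 306 and 313 CPM (log2 fold change -1.26, SE 0.10, adjusted p 3.8e-10). Tnfrsf4 (OX40) had 422, 315 and 345 CPM at 0 h and 479.8, 364 and 428 CPM at 6 h, ranges that overlap, with an adjusted p of 0.0454 that several other settings did not keep.

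Of 21 inhibitory and costimulatory receptors, 9 rose (42.9%) and 6 fell (28.6%), the latter share near that of all genes. Cd274 (PD-L1) rose from 132, 101 and 123 CPM to 499, 495 and 576 CPM (log2 fold change 2.14, SE 0.12, adjusted p 3.2e-12), and its receptor Pdcd1 (PD-1) by 0.71, highest at both times in the mouse labelled WT 1. Cd160 rose from 2.799, 2.22 and 5.07 CPM to 36.96, 25.1 and 30.2 CPM (log2 fold change 3.20, SE 0.25, adjusted p 3.8e-10). Ctla4, which competes with CD28 for its ligands, fell from 502, 355 and 385 CPM to 220.3, 162 and 203 CPM (log2 fold change -1.08, SE 0.12, adjusted p 5.9e-08). Cd28 itself fell from 599, 456 and 555 CPM to 326, 287 and 285 CPM (log2 fold change -0.84, SE 0.11, adjusted p 6.4e-07).

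Receptors that guide T cells through blood and lymph mostly fell. Of 21 chemokine and homing receptors tested, 14 fell (66.7%) and 3 rose (14.3%), with a median of -0.74, and 12 fell without the mouse labelled WT 1. Ccr7, which draws T cells into lymph nodes, fell from 1253, 2099 and 1876 CPM to 287, 397 and 368 CPM (log2 fold change -2.30, SE 0.10, adjusted p 8.3e-14), lowest at both times in that mouse. S1pr1, through which T cells leave lymph nodes, fell from 1296, 1469 and 1613 CPM to 229.9, 246 and 266 CPM (log2 fold change -2.56, SE 0.14, adjusted p 2.7e-12). The exceptions included Ccr4, a receptor for CCL17 and CCL22, which rose from 44.03, 22.2 and 28.1 CPM to 165, 194 and 202 CPM (log2 fold change 2.58, SE 0.18, adjusted p 6.4e-11), and Gpr183, a receptor for oxysterols, which rose from 81.96, 75.2 and 79.1 CPM to 182, 253 and 243 CPM.

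The genes of the resting state moved with them. Of 27 tested, 21 fell (77.8%) and 4 rose (14.8%; median -1.26, and -1.32 without the mouse labelled WT 1). Klf2, which holds up S1pr1, fell from 686, 789.8 and 878 CPM to 183, 234 and 305 CPM (log2 fold change -1.73, SE 0.15, adjusted p 3.5e-09). Tcf7 (TCF1), a factor of naive and memory cells, fell from 1726, 2077 and 1996 CPM to 682, 679.7 and 686 CPM (log2 fold change -1.50, SE 0.11, adjusted p 1.6e-10), and Klf4 by 2.93. Dusp1, a phosphatase of MAP kinases, fell from 311, 262 and 313 CPM to 51.98, 42.4 and 40.8 CPM (log2 fold change -2.72, SE 0.11, adjusted p 3.3e-14). Bach2, a repressor of effector genes, went against the list and rose from 138, 160.4 and 163 CPM to 332, 379.96 and 366 CPM (log2 fold change 1.22, SE 0.12, adjusted p 8.4e-09), as did Slfn2, by 0.66.

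**Figure D3:**
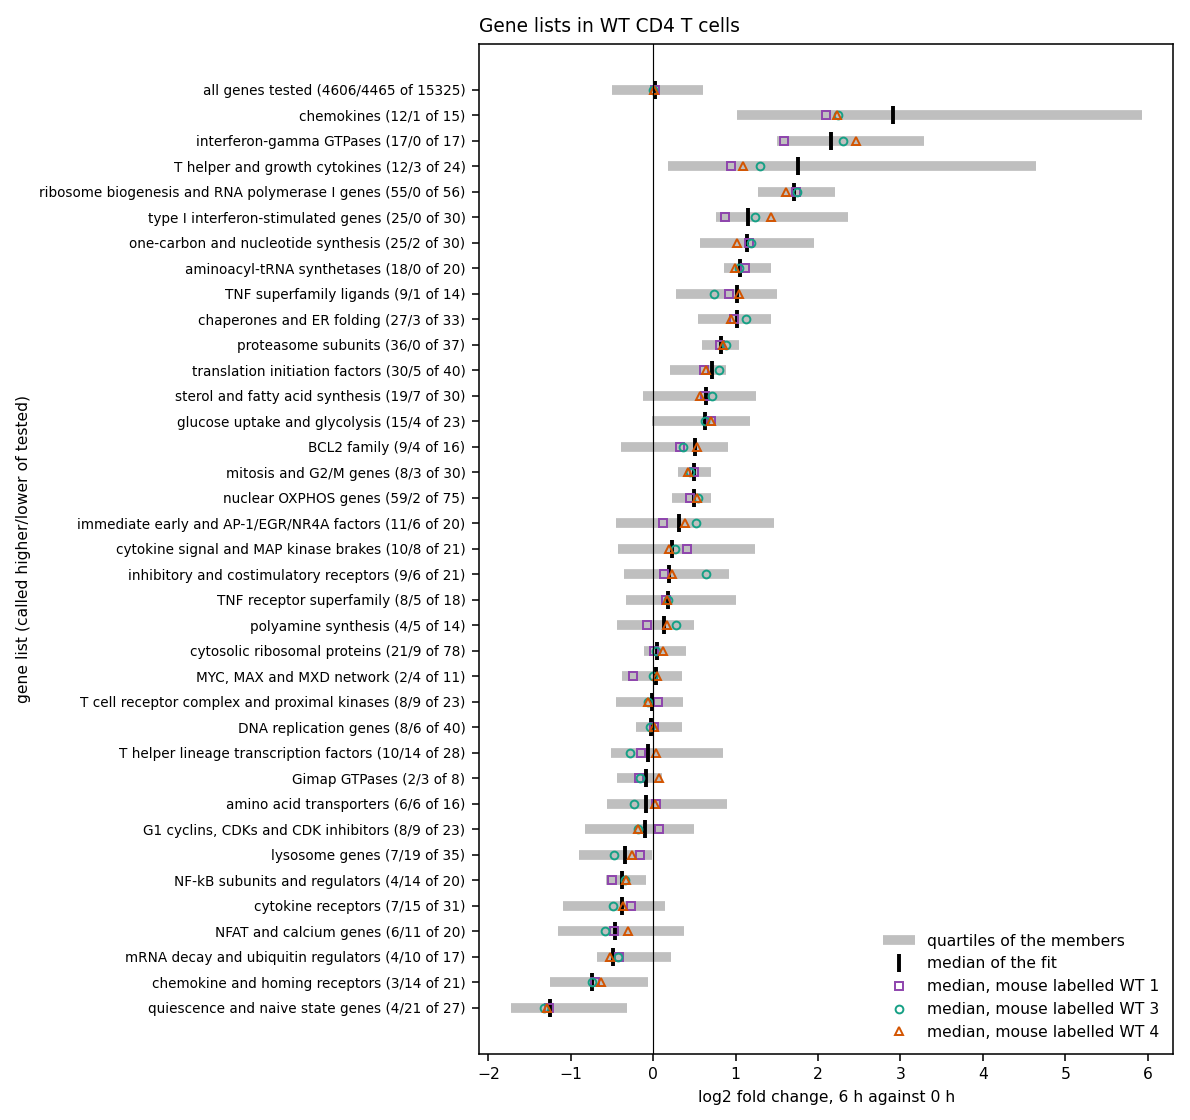
Changes of 36 gene lists and of all genes tested in WT CD4+ T cells. The x axis gives the log2 fold change of 6 h against 0 h, grey bars span the quartiles of the members, black ticks are medians of the fit, and symbols are medians of the ratios within each mouse, computed from log2 CPM with a prior count of 2, which shrinks genes near the floor. Labels give members called higher and lower of those tested, from chemokines (median 2.91) down to the genes of the resting state (median -1.26).

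Leaving out the mouse labelled WT 1 moved the number of members called higher or lower by at most 2 in 40 of the 41 lists, and by 4 in the remaining 1, the ribosomal proteins.

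The early transcription factors did not move as 1 group. Of 20 immediate early and AP-1, EGR and NR4A genes, 11 rose (55%) and 6 fell (30%, near the share of all genes). Egr1, a zinc finger factor induced by ERK, rose from 64.5, 65.04 and 70.8 CPM to 495, 606 and 561 CPM (log2 fold change 3.05, SE 0.16, adjusted p 1.0e-12). Its neighbours in the list included Fos, which was at 75.6, 89.9 and 87.7 CPM at 0 h and fell to 43.8, 63.3 and 58.5 CPM (log2 fold change -0.62, SE 0.10, adjusted p 2.5e-05). Fosb fell from 118, 105 and 123 CPM to 14.1, 16.8 and 19.999 CPM (log2 fold change -2.76, SE 0.15, adjusted p 2.8e-12), and Fosl2 from 979.98, 1189.97 and 1387 CPM to 279, 305 and 349.9 CPM (log2 fold change -1.93, SE 0.11, adjusted p 3.5e-12). The FOS-type subunits thus moved apart, with Fosl1 higher and Fos, Fosb and Fosl2 lower at 6 h than in unstimulated cells.

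Genes of the NF-kB pathway mostly fell, 14 of 20 (70%) against 4 that rose (20%; median -0.38). Brakes of the pathway made both the largest falls and the largest rises of the list. Tnfaip3 (A20) fell from 2418, 2425 and 2889.7 CPM to 605, 494 and 611 CPM (log2 fold change -2.18, SE 0.08, adjusted p 2.3e-14), and Tnip1, a partner of A20, from 423, 432 and 465 CPM to 155, 124 and 136 CPM (log2 fold change -1.67, SE 0.10, adjusted p 1.0e-11). The largest rises were those of Tnip2, by 0.70, and Nfkbib (IkB beta), by 0.42. Nfkbia (IkB alpha), an inhibitor that NF-kB itself induces, fell by 0.52. Nfkb1, which codes for the p50 subunit, rose by 0.33, a call that was lost without the mouse labelled WT 1.

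Of 20 NFAT and calcium genes, 11 fell (55%) and 6 rose (30%), the share of rises being that of all genes. Nfatc1, the family member induced by NFAT itself, rose from 437, 309 and 369.97 CPM to 596, 596 and 552 CPM (log2 fold change 0.65, SE 0.12, adjusted p 9.1e-05). Rcan1, an inhibitor of calcineurin and a common NFAT target, rose by 0.73, and Ppp3cc, a catalytic subunit of calcineurin, from 29.99, 29.4 and 27.7 CPM to 88.7, 104 and 119.8 CPM (log2 fold change 1.82, SE 0.11, adjusted p 1.1e-11). Stim1, the calcium sensor of the endoplasmic reticulum, fell from 220.2, 274 and 263 CPM to 91.4, 64.6 and 73.1 CPM (log2 fold change -1.73, SE 0.14, adjusted p 1.2e-09), and the kinase Camk4 by 1.63.

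Within the T cell receptor machinery 8 of 23 genes rose (34.8%) and 9 fell (39.1%), shares not far from the 30.1% and 29.1% of all genes. Cd4 fell from 897, 926 and 874 CPM to 598, 407 and 407 CPM (log2 fold change -0.96, SE 0.10, adjusted p 6.6e-08). Lcp2 (SLP-76), an adaptor, rose from 318, 271 and 319.9 CPM to 879.9, 807 and 829.9 CPM (log2 fold change 1.47, SE 0.10, adjusted p 8.9e-11), and Ptpn6 (SHP-1), a phosphatase that dampens the signal, from 70.3, 78.2 and 75.6 CPM to 197, 234 and 216 CPM (log2 fold change 1.53, SE 0.10, adjusted p 3.0e-11). Pag1, an adaptor for the inhibitory kinase CSK, fell by 1.78.

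Factors of the T helper lineages gave 10 rises (35.7%) and 14 falls (50%) among 28 genes. Irf4, which follows the strength of the receptor signal, rose from 312, 181 and 259.8 CPM to 1515, 1598 and 1495 CPM (log2 fold change 2.62, SE 0.17, adjusted p 2.0e-11). Irf8 rose from 16.6, 29.5 and 23.6 CPM to 254, 294 and 278 CPM (log2 fold change 3.58, SE 0.24, adjusted p 5.1e-11), and Tbx21 (T-bet), the Th1 factor, from 26.2, 17.4 and 20.6 CPM to 109, 120.3 and 144 CPM (log2 fold change 2.54, SE 0.21, adjusted p 1.3e-09). Gata3, the Th2 factor, rose by 0.46. Rora, a factor of Th17 cells, fell from 176, 118 and 172 CPM to 64.2, 39.4 and 49.5 CPM (log2 fold change -1.60, SE 0.12, adjusted p 1.3e-10), and Stat5b by 1.22. Foxp3, the factor of regulatory T cells and the gene in the title of the series, was named after its values were seen. It rose from 111, 84.9 and 117 CPM to 257, 189 and 253 CPM (log2 fold change 1.16, SE 0.14, adjusted p 4.8e-07), without overlap of the groups, and was also higher at 3 h (266 CPM) and lower at 24 h (49.1 CPM; group means).

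Feedback regulators of cytokine and MAP kinase signals gave 10 rises (47.6%) and 8 falls (38.1%) of 21. Socs1, an inhibitor of JAK kinases, rose from 19.8, 21.3 and 17.3 CPM to 183, 377 and 386 CPM (log2 fold change 3.97, SE 0.22, adjusted p 2.6e-12), lowest at 6 h in the mouse labelled WT 1, while Socs3 fell by 0.85. Spry1, a brake on the RAS pathway, rose from 66.4, 39.9 and 39.3 CPM to 383, 426 and 325 CPM (log2 fold change 2.99, SE 0.20, adjusted p 5.4e-11), while the phosphatases Dusp10 and Dusp14 fell by 1.56 and 1.38. Regulators of mRNA decay and ubiquitin ligases mostly fell (10 of 17 or 58.8%, with 4 rises or 23.5%). Zc3h12a (Regnase-1), which cuts cytokine mRNA, fell from 137, 122 and 134 CPM to 62.6, 71.6 and 76.4 CPM (log2 fold change -0.91, SE 0.08, adjusted p 2.0e-09), and Zfp36l2 from 651, 778 and 840.5 CPM to 192, 205 and 192 CPM (log2 fold change -1.94, SE 0.10, adjusted p 6.0e-13). Zfp36, of the same family, had 256, 275 and 322 CPM and 254, 387 and 359 CPM, with overlapping ranges and an adjusted p of 0.0641. Without the mouse labelled WT 1, Zfp36 was called higher (log2 fold change 0.32, adjusted p 0.0178). Dgka, which removes diacylglycerol and is linked to anergy, fell by 1.32.

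In the BCL2 family 9 of 16 genes rose (56.2%) and 4 fell (25%). Bcl2, which protects from apoptosis, rose from 104, 91.2 and 100.1 CPM to 248, 282 and 378 CPM (log2 fold change 1.59, SE 0.13, adjusted p 9.7e-10). Bmf and Pmaip1 (NOXA), both of the class that promotes it, fell by 1.31 and 1.18. Bid, of that same class, rose by 1.64.

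Myc, which drives growth, rose from 79.9, 76.4 and 76.98 CPM to 628, 823 and 719 CPM (log2 fold change 3.21, SE 0.14, adjusted p 1.2e-13), lowest at 6 h in the mouse labelled WT 1. Its partner Max was at 168, 186 and 158 CPM and 154, 191 and 179.9 CPM (log2 fold change 0.03, adjusted p 0.708), and the antagonists of MYC fell, Mxd4 from 323, 326 and 371 CPM to 64.7, 47.1 and 51.5 CPM (log2 fold change -2.65, SE 0.12, adjusted p 2.1e-13) and Mxi1 from 135, 133 and 143 CPM to 28.2, 20.2 and 24.04 CPM (log2 fold change -2.51, SE 0.09, adjusted p 2.3e-14). In the whole MYC, MAX and MXD list of 11 genes, 2 rose (18.2%) and 4 fell (36.4%).

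Of 56 genes of ribosome biogenesis and RNA polymerase I, 55 rose (98.2%) and none fell (median 1.71, lower quartile 1.28), and all 56 rose without the mouse labelled WT 1. Ncl (nucleolin), an abundant nucleolar protein, rose from 1102, 981 and 1077 CPM to 3301, 3580.5 and 3310.02 CPM (log2 fold change 1.69, SE 0.11, adjusted p 2.6e-11). Fbl (fibrillarin), which methylates ribosomal RNA, rose from 11.4, 13.2 and 10.4 CPM to 28.98, 34.5 and 26.3 CPM (log2 fold change 1.35, SE 0.13, adjusted p 8.3e-09). The largest rises of the list were those of Grwd1, from 21.64, 24.8 and 26.1 CPM to 155, 195 and 160.1 CPM (log2 fold change 2.80, SE 0.14, adjusted p 1.0e-12), and Rrp1b, from 34.4, 36.4 and 33.7 CPM to 226, 257 and 231 CPM (log2 fold change 2.77, SE 0.15, adjusted p 1.5e-12).

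The cytosolic ribosomal proteins, the products these genes help to assemble, behaved otherwise. Of 78 tested, 48 were not called, 21 rose and 9 fell (median 0.052), a called share of 38.5% against 59.2% of all genes, and without the mouse labelled WT 1 there were 20 rises and 5 falls. Rpl3 was at 107, 124 and 125 CPM and 122, 139 and 124 CPM, with an adjusted p of 0.195. Rps3 was at 1891, 2557 and 2449.97 CPM and then at 1734, 2043 and 2072 CPM (log2 fold change -0.23, adjusted p 0.0191), and Rpl10a rose by 1.32. Ribosomal protein genes have many processed pseudogenes, so their counts are uncertain.

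Because MYC binds the E-box CACGTG, this pattern was searched in the promoters of the ribosome biogenesis list. It was in 14 of 60 windows of 300 bases (23.3%), against 9.80% of windows of genes tested, 12.5% of those of genes that rose by more than 1, and 9.71% of those of genes that fell by more than 1. The 15 largest falls held it in 4 of 12 windows (33.3%), a share above that of the ribosome biogenesis list, and the 15 largest rises in 0 of 13. No window of the cytokine or chemokine lists held it. The windows of 2 of these genes are shown for the 250 bases before the start, 1 for Nop2, an RNA methyltransferase of the nucleolus, and 1 for Rrn3, an initiation factor of RNA polymerase I, with the same marks as above.
Nop2: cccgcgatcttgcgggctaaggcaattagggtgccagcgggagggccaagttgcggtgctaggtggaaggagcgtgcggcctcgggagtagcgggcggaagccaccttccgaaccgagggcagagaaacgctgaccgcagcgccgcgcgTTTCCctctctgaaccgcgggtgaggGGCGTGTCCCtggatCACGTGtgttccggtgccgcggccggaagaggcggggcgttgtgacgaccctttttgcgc
Rrn3: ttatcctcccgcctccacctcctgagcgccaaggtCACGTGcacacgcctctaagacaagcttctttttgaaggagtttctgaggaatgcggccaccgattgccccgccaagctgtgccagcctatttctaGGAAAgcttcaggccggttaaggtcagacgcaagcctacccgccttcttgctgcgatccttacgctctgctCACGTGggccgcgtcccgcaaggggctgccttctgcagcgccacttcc

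In Nop2 (chr6:125131633-125131882, plus strand) the E-box started at -60, beside an NF-kB pattern at -75 and the NFAT core at -101. In Rrn3 (chr16:13780449-13780698, plus strand) it started at -215 and again at -48, with the NFAT core at -119. The bases after the RefSeq start of Nop2 were not found at the start of an annotated transcript of that gene. The positions in Nop2 are therefore less certain than those in the other windows shown. Nop2 rose from 50.7, 61.8 and 65.02 CPM to 306, 372 and 330.1 CPM (log2 fold change 2.50, SE 0.13, adjusted p 1.0e-12), and Rrn3 from 74.7, 76.97 and 84.7 CPM to 126, 132 and 130.2 CPM (log2 fold change 0.72, SE 0.07, adjusted p 3.5e-08), so that the gene with both E-boxes rose less. The pair was chosen after the values were seen, and no binding was measured.

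Translation genes followed the ribosome biogenesis list, with 30 of 40 initiation factors higher (75%) and 5 lower (12.5%) (median 0.72). Eif4e, the cap-binding protein, rose from 38.5, 34.4 and 38.2 CPM to 86.8, 101 and 90.99 CPM (log2 fold change 1.32, SE 0.13, adjusted p 9.5e-09), and Eif2b3, of the exchange factor for eIF2, from 10.1, 8.47 and 10.2 CPM to 57.2, 54.98 and 51.97 CPM (log2 fold change 2.50, SE 0.14, adjusted p 3.4e-12). Eif5a, which carries the modified lysine hypusine, rose from 311, 345 and 314 CPM to 1122, 1405 and 1253 CPM (log2 fold change 1.96, SE 0.11, adjusted p 4.5e-12). Eif4a2 fell by 0.51 while its close relative Eif4a1 rose by 0.94. Of 20 aminoacyl-tRNA synthetases, which load transfer RNAs, 18 rose (90%) and none fell (median 1.05). Wars, for tryptophan and also a gene induced by interferon gamma, rose most, from 51.4, 50.004 and 56.5 CPM to 268, 281 and 329.9 CPM (log2 fold change 2.47, SE 0.09, adjusted p 2.3e-14).

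One-carbon and nucleotide synthesis rose in 25 of 30 genes (83.3%) and fell in 2 (median 1.14). Shmt2, the mitochondrial partner of Shmt1, rose from 57.6, 73.1 and 63.9 CPM to 329.6, 421 and 342 CPM (log2 fold change 2.49, SE 0.10, adjusted p 6.8e-14). Cad, which starts pyrimidine synthesis, rose from 40.8, 38.2 and 44.5 CPM to 337, 316 and 268 CPM (log2 fold change 2.89, SE 0.15, adjusted p 8.1e-13), and Mthfd2, of the mitochondrial folate cycle, from 37.4, 34.8 and 30.4 CPM to 107, 135 and 127 CPM (log2 fold change 1.84, SE 0.10, adjusted p 1.7e-12). The falls were those of Ctps2 (-1.48) and of Dck (-1.39), the kinase of the deoxycytidine salvage path. Among 14 polyamine genes there were 4 rises (28.6%) and 5 falls (35.7%), shares close to those of all genes, and 6 rises without the mouse labelled WT 1. Srm (spermidine synthase) rose from 12.3, 18.6 and 15.4 CPM to 267, 332 and 283 CPM (log2 fold change 4.26, SE 0.19, adjusted p 1.3e-13), whereas Odc1, the first enzyme of the pathway, fell from 688, 688 and 814 CPM to 353, 329 and 372 CPM (log2 fold change -1.05, SE 0.10, adjusted p 7.8e-09).

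Energy metabolism changed by smaller amounts. Of 23 genes of glucose uptake and glycolysis, 15 rose (65.2%) and 4 fell (17.4%; median 0.63). Hk2, a hexokinase, rose from 6.897, 5.73 and 6.44 CPM to 54.1, 57.1 and 49.97 CPM (log2 fold change 3.07, SE 0.19, adjusted p 1.0e-11). Slc2a1 (GLUT1) rose from 51.5, 55.1 and 52.7 CPM to 72.1, 85.4 and 79.1 CPM (log2 fold change 0.57, SE 0.07, adjusted p 8.7e-07). The lactate exporters parted, Slc16a1 rising by 1.497 and Slc16a3 falling from 63.8, 44.99 and 56.5 CPM to 20.8, 14.4 and 14.4 CPM (log2 fold change -1.75, SE 0.15, adjusted p 2.2e-09). Nuclear genes of oxidative phosphorylation rose in 59 of 75 cases (78.7%) and fell in 2 (median 0.49), with Ndufa12, a complex I subunit, among the highest (9.196, 11.6 and 8.97 CPM to 26.9, 35.6 and 27.3 CPM). Genes encoded by mitochondrial DNA took from 1.24% to 2.05% of the counts of these libraries.

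Of 16 amino acid transporters, 6 rose and 6 fell (37.5% each way, against 30.1% and 29.1% of all genes). Slc7a5 (LAT1), which brings in leucine, rose from 87.4, 103 and 116 CPM to 293, 292 and 261 CPM (log2 fold change 1.46, SE 0.15, adjusted p 3.2e-08). Slc1a5, a glutamine carrier, rose from 278, 344 and 304 CPM to 900.2, 1137 and 961 CPM (log2 fold change 1.69, SE 0.14, adjusted p 8.4e-10). Slc3a2 (CD98), the heavy chain of LAT1, was at 358, 368 and 411 CPM and 383, 438 and 442 CPM and was not called (adjusted p 0.2). Slc43a2 fell from 88.1, 96.1 and 100.2 CPM to 31.9, 14.5 and 17.2 CPM (log2 fold change -2.22, SE 0.17, adjusted p 2.5e-10), and Slc38a2 by 1.17.

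Sterol and fatty acid genes gave 19 rises (63.3%) and 7 falls (23.3%) of 30 (median 0.64). Sqle (squalene epoxidase) rose from 18.4, 16.1 and 22.8 CPM to 67.9, 65.2 and 65.8 CPM (log2 fold change 1.80, SE 0.11, adjusted p 6.3e-12). The exporters of cholesterol fell, Abca1 from 36.9, 55.4 and 38.2 CPM to 5.98, 7.98 and 5.11 CPM (log2 fold change -2.77, SE 0.16, adjusted p 6.7e-12) and Abcg1 from 159, 197 and 135 CPM to 40.2, 40.3 and 32.9 CPM (log2 fold change -2.10, SE 0.11, adjusted p 1.9e-12). Protein folding and turnover rose: 27 of 33 chaperones were higher (81.8%) and 3 lower (median 1.02), and 36 of 37 proteasome subunits were higher (97.3%) and none lower (median 0.82). Hspd1 (HSP60), of mitochondria, rose from 56.3, 46.2 and 49.1 CPM to 280.5, 309.8 and 283 CPM (log2 fold change 2.52, SE 0.14, adjusted p 1.7e-12). Psme2, of the activator induced by interferon gamma, rose from 73.7, 72.3 and 69.5 CPM to 179.7, 209 and 227 CPM (log2 fold change 1.51, SE 0.11, adjusted p 8.2e-11). The exceptions included the stress-induced pair Hspa1a (-0.97) and Hspa1b (-0.95), whose near-identical sequences make their separate counts uncertain.

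Few division genes passed the test. Of 40 DNA replication genes 26 were not called, 8 rose and 6 fell, and of 30 genes of mitosis 19 were not called, 8 rose and 3 fell, called shares of 35% and 36.7% against 59.2% of all genes. The median was -0.03 for the replication list and 0.49 for the mitosis list (quartiles 0.31 and 0.71), and in each of the 3 mice the median ratio of the mitosis list was above 0 (0.50 in WT 1, 0.45 in WT 3 and 0.42 in WT 4). Pcna, the sliding clamp, was at 104, 96.6 and 107 CPM and 129, 143 and 135 CPM (log2 fold change 0.40, SE 0.10, adjusted p 0.00112). Mki67 was at 99.8, 37.3 and 48.3 CPM and 132, 57.7 and 64.9 CPM (adjusted p 0.122), highest at both times in the mouse labelled WT 1, and the mean at 24 h was 860.3 CPM. Among the regulators of G1, Ccnd2 (cyclin D2) rose from 222, 242 and 270.4 CPM to 1594, 1655 and 1786 CPM (log2 fold change 2.78, SE 0.15, adjusted p 1.7e-12) and its kinase Cdk4 from 78.7, 83.2 and 84.5 CPM to 276, 352 and 307 CPM (log2 fold change 1.92, SE 0.10, adjusted p 1.4e-12). Ccne2 (cyclin E2) fell from 7.05, 4.13 and 4.81 CPM to 2.44, 1.26 and 1.75 CPM (log2 fold change -1.54, SE 0.30, adjusted p 0.000154), and Rbl2 (p130), a pocket protein of resting cells, by 1.09. Rpa1, which binds single-stranded DNA, fell from 386, 461 and 417 CPM to 149.95, 123 and 132 CPM (log2 fold change -1.64, SE 0.14, adjusted p 2.7e-09).

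Interferon-responsive genes were higher at 6 h, by amounts that varied between the mice. All 17 GTPases induced by interferon gamma rose (median 2.16), and 25 of 30 type I interferon-stimulated genes rose (83.3%) with none lower (median 1.15). The median ratio of the GTPases was 1.58 in the mouse labelled WT 1, 2.30 in WT 3 and 2.46 in WT 4. Gbp2, a guanylate-binding protein, rose from 123, 78.002 and 84.3 CPM to 1677, 1732 and 2447 CPM (log2 fold change 4.33, SE 0.21, adjusted p 3.8e-13). Irgm1 rose from 182, 159 and 223 CPM to 499, 545 and 709 CPM (log2 fold change 1.63, SE 0.10, adjusted p 5.8e-12). Oas2, a sensor of double-stranded RNA, rose from 10.8, 5.68 and 10.8 CPM to 65.6, 96.9 and 177 CPM (log2 fold change 3.56, SE 0.24, adjusted p 3.3e-11), and Ly6a (Sca-1) from 90.9, 50.8 and 71.4 CPM to 712, 858 and 1170.4 CPM (log2 fold change 3.68, SE 0.22, adjusted p 5.8e-12). Mx1 was at 5.15, 2.22 and 3.75 CPM and 5.67, 1.99 and 3.84 CPM and was not called (adjusted p 0.911). Guanylate-binding genes lie in clusters of similar copies, and Gbp11, annotated as a polymorphic pseudogene, had the largest value (4.99), so single members are uncertain.

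Of 35 lysosome genes 19 fell (54.3%) and 7 rose (20%; median -0.35). Ctsd (cathepsin D) fell from 114, 149 and 141 CPM to 78.3, 74.6 and 78.1 CPM (log2 fold change -0.81, SE 0.09, adjusted p 9.6e-08), and Gla (alpha-galactosidase A) from 30.3, 27.3 and 30.003 CPM to 9.66, 9.098 and 11.3 CPM (log2 fold change -1.54, SE 0.12, adjusted p 6.1e-10), while Ctsz rose from 39.8, 37.5 and 37.8 CPM to 98.4, 101 and 89.1 CPM (log2 fold change 1.32, SE 0.09, adjusted p 8.5e-11). Of 8 Gimap genes, GTPases of lymphocyte survival, 3 fell (37.5%) and 2 rose (25%). Gimap6 fell from 1870.2, 2138 and 2141 CPM to 634, 737 and 823 CPM (log2 fold change -1.49, SE 0.07, adjusted p 2.1e-13), and Gimap5 rose by 0.95.

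Markers of other cell types were present, with the B cell sums given above the largest. Of 12 myeloid markers 6 fell and 2 rose, with a summed level of 72.3 ± 9.68 CPM at 0 h and 49.3 ± 16.5 CPM at 6 h (SD, n = 3; exact p = 0.2). The 9 markers of CD8 T and NK cells summed to 86.9 ± 14.9 CPM and 75.3 ± 2.56 CPM (exact p = 0.4), with 1 rise and 4 falls, and the 9 of erythroid cells and platelets to 43.96 ± 35.5 CPM and 44.8 ± 26.1 CPM (exact p = 1.0), with 2 rises and 1 fall. Of 10 B cell markers 2 rose and 1 fell, and no rise was called without the mouse labelled WT 1. Lyz2, a macrophage and granulocyte gene, was at 25.8, 34.8 and 16.8 CPM and 29.6, 18.7 and 10.9 CPM (adjusted p 0.105). Without the mouse labelled WT 1, Lyz2 was called lower (log2 fold change -0.78, adjusted p 0.0236). The part of such cells in the rises of chemokines and interferon-responsive genes was not tested.

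The response at 6 h was then set against that at 3 h. In the test of 6 h against 3 h 5537 genes (36.1%) were called, and 3520 without mouse WT 4. Of the 4606 genes that had risen by 6 h, 2504 were higher at 6 h than at 3 h, 125 were lower and 1977 were not called between them. Of the 4465 that had fallen, 2179 were lower at 6 h than at 3 h, 55 were higher and 2231 were not called. The test of 24 h against 6 h called 10011 genes (65.3%). By 24 h, 2440 of the rises had gone further, 1000 had gone back and 1166 were not called, and of the falls 2282 had gone further, 847 had gone back and 1336 were not called.

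A group of 321 genes (2.09%) was higher at 6 h than at 0, 3 and 24 h by all 3 tests, and 290 (1.89%) were lower than at each of them. Without the mouse block there were 159 and 191, without mouse WT 3 183 and 162, and without mouse WT 4 202 and 141. Leaving out the 6 h library of WT 3 gave 208 and 163, and that of WT 4 gave 190 troughs. The margin was above 1 on the log2 scale on both sides for 51 of the peaks and 21 of the troughs. Ccl3 averaged 0.456 ± 0.0433 CPM in unstimulated cells, 55.6 ± 11.7 CPM at 3 h, 207 ± 53.2 CPM at 6 h and 106 ± 28.6 CPM after 24 h (SD, n = 3), a change of 1.88 (SE 0.22, adjusted p 1.7e-06) from 3 h to 6 h and of -0.98 (SE 0.22, adjusted p 0.00043) from 6 h to 24 h. Il17a and Il17f, neighbours on chromosome 1, had the same course, and Il17f changed by -2.92 (SE 0.32, adjusted p 5.5e-08) from 6 h to 24 h. Ak7, an adenylate kinase of cilia, changed by 3.26 (SE 0.27, adjusted p 2.5e-08) from 3 h to 6 h and by -1.32 (SE 0.23, adjusted p 3.7e-05) after it.

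The troughs included genes that were high later. Kif23, a kinesin of cytokinesis, averaged 21.02 ± 3.003 CPM in unstimulated cells, 8.38 ± 3.18 CPM at 6 h and 104 ± 14.2 CPM after 24 h (SD, n = 3), a change of 3.68 (SE 0.22, adjusted p 8.7e-12) from 6 h to 24 h. Dapl1 rose by 4.03 (SE 0.15, adjusted p 1.8e-14) over the same hours, from 3.304 ± 0.665 to 53.6 ± 5.54 CPM, and Gtf2ird1 by 2.47 (SE 0.27, adjusted p 7.3e-08). St8sia6, a sialyltransferase, and Khdrbs3, an RNA-binding protein, came back only slightly, by 0.55 and 0.81.

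**Figure D4:**
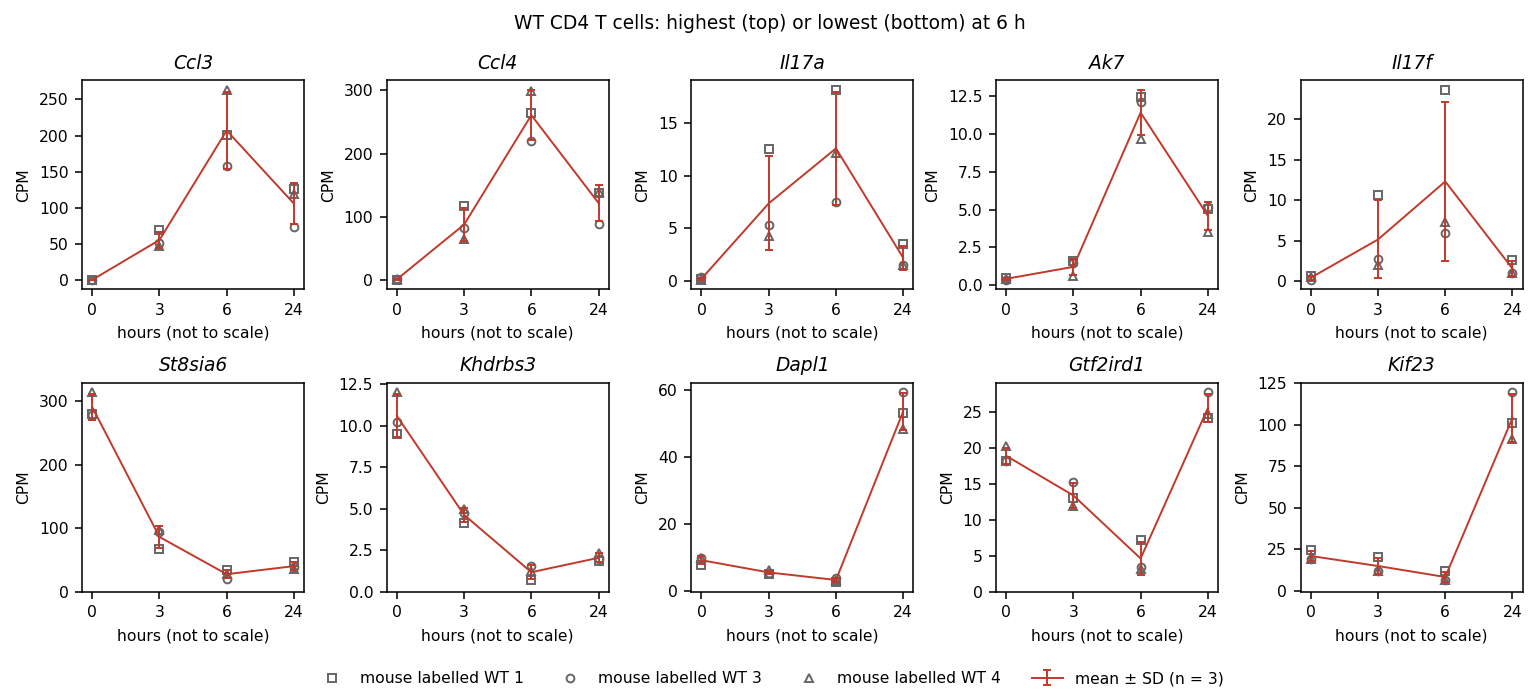
Time course of the 5 genes with the largest summed peak and the 5 with the largest summed trough at 6 h in WT cells. The y axes give CPM, the x axes the hours of stimulation (not to scale), symbols are the 3 mice, and lines and bars are means and SD (n = 3). Il17a and Il17f at 6 h are highest in the mouse labelled WT 1, and Dapl1, Gtf2ird1 and Kif23 are highest at 24 h.

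Aim2-/- cells served to ask whether the response depended on genotype. The interaction of genotype and time, in the same model, was called for 717 genes (4.68%), a count that fell to 4 without the mouse block and to 0 without mouse WT 3 (where 2204 genes had an unadjusted p under 0.05, and DESeq2 called 1270 with all mice). Of all 237 named genes 51 were called, and of the 36 among them named for Aim2, the largest changes or the peaks and troughs, 6 were called. Ccl3 rose by 8.81 in WT and by 6.35 in Aim2-/- cells (difference -2.45, SE 0.63, adjusted p 0.0314), where its level was 3.46 ± 2.01 CPM at 0 h and 278 ± 94.1 CPM at 6 h (SD, n = 3), above the WT mean at both times. Sema7a rose by 5.89 and 4.34, and Hivep3 by 5.69 and 4.31. Arl5c fell by 3.35 and 2.36, Rflnb by 3.18 and 2.20, and Lgmn by 3.03 and 2.04. The 36 genes were chosen by the WT values that enter this difference, which favours a smaller change in the other genotype. None of the 6 stayed called without the mouse block or without mouse WT 3. The WT arm includes the mouse labelled WT 1, whose Aim2 is near the Aim2-/- level, and without it 547 genes were called, 405 of them shared, while the difference was -2.53 for Ccl3 (adjusted p 0.0813) and -1.80 for Sema7a (adjusted p 0.0516) and stayed called for the other 4. The summed myeloid markers were 598, 208 and 308 CPM at 0 h in the Aim2-/- mice 1, 2 and 4, against 70.5, 82.8 and 63.7 CPM in WT, and 339, 111 and 140.03 CPM at 6 h, against 66.5, 47.9 and 33.6 CPM in WT. Ccl3 at 0 h was 5.61, 1.62 and 3.15 CPM in these Aim2-/- mice, the same order as their myeloid sums, and the part of myeloid cells in the difference was not tested. The difference for Aim2 itself was 0.20 (SE 0.24, adjusted p 0.686).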

How the data were processed

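RNA of 24 libraries (2 genotypes, 4 time points, 3 mice each) was sequenced after a stranded mRNA preparation. Per the labels and the submitters' processing notes, the authors aligned reads to GRCm38 with STAR and deposited raw counts per Ensembl gene, in which strand use is not stated, so antisense, overlapping and near-identical genes are uncertain. Groups came from the labels. Counts were fitted in edgeR 4.0.16 (R 4.3.3) by glmQLFit and glmQLFTest over all 24 libraries, with the mouse as a block, TMM scaling and filterByExpr (minimum count 10), which left 15325 of 54446 genes. The Benjamini-Hochberg method adjusted the p-values, and an adjusted p under 0.05 was called. The SE is the log2 fold change divided by the root of F. Fits were tested on simulated data. Each number in the labels, taken as 1 mouse, has a library at every time point. Deviations from the group means correlated at 0.139 to 0.567 within mice (36 pairs) and at -0.432 to 0.0742 between mice (72 pairs). These values cannot tell a mouse from a batch shared by libraries of the same number. CPM used TMM-scaled totals. Named genes were Aim2, the 15 largest rises and 15 largest falls (called, same direction in 3 mice, no overlap, at least 10 CPM in the higher group, no clone names), 5 peaks and 5 troughs at 6 h, and of each list the first 2 genes tested plus the 2 largest called rises and falls. The members and lists were chosen with earlier results of these data known. Alternatives were 2 other scalings, 2 filters, fits without the block or on fewer libraries, limma-voom (limma 3.58.1), DESeq2 1.42.0 and leaving out each WT mouse or library. Promoters came from RefSeq (GRCm38.p6), and 10598 of 15323 symbols tested matched. Some genes that the rule names are not reported here.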

Additional observations from a re-analysis of the deposited data

Results flagged for a closer look

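For 6 of the 36 genes named for Aim2, the largest changes or the peaks and troughs (4.68% over all genes tested), the response at 6 h differed between genotypes by the interaction term of the edgeR model (log2 response of Aim2-/- minus that of WT cells, Benjamini-Hochberg over all genes tested). The difference was -2.45 for Ccl3 (SE 0.63, adjusted p 0.0314), -1.55 for Sema7a (SE 0.41, adjusted p 0.0358) and -1.37 for Hivep3 (SE 0.27, adjusted p 0.0112), all of which rose in both genotypes. It was 0.99 for Arl5c (SE 0.21, adjusted p 0.0149), 0.98 for Rflnb (SE 0.18, adjusted p 0.0109) and 0.99 for Lgmn (SE 0.19, adjusted p 0.0112), all of which fell in both. The 36 genes were chosen by the WT values that enter this difference, so its direction is not independent of the choice. In all 6 the difference was opposite in sign to the WT change. The same held for 525 of the 601 genes called both in this term and in WT at 6 h against 0 h, a set also chosen by WT values. Over all 237 named genes the term was called for 51, Fos and Nfatc1 among them, and those outside the 36 are not described here. Sema7a averaged 12.2 ± 2.49 CPM at 0 h and 256 ± 73.9 CPM at 6 h in Aim2-/- cells, and Lgmn 32.3 ± 2.69 CPM and 8.02 ± 2.52 CPM (SD, n = 3). All 6 kept their direction in 16 alternatives, none of which left out an Aim2-/- mouse or library. All 6 lost the call without the mouse block, without mouse WT 3 and without the WT library of 0 h from mouse WT 3. Without the mouse labelled WT 1, Ccl3 (adjusted p 0.0813) and Sema7a (adjusted p 0.0516) lost it too. The part of mouse WT 3 in the difference was not tested beyond leaving it out.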

How the results depend on the processing

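Genes called at 6 h against 0 h ranged from 7732 to 8440 when a WT mouse or library was left out (higher 3755 to 4323, lower 3958 to 4380). Without the replicate block 7837 were called, of which 7816 were shared with the blocked fit. The share of rises among calls was 50.8%, and 57.3% with library totals only (median log2 fold change 0.107), 47.5% with RLE size factors and 47.6% in DESeq2. Leaving out gave 3520 to 5578 genes for 6 h against 3 h (3520 without mouse WT 4), 8746 to 10113 for 24 h against 6 h, and 0 to 807 for the genotype difference (0 by edgeR without mouse WT 3, where 2204 genes had an unadjusted p under 0.05, 339 without mouse WT 4, 10 without the 0 h library of WT 3, and 390, 225 and 220 without the 6 h library of WT 1, WT 3 and WT 4). The genotype difference had 4 calls without the block, 1276 without a low-count filter and 1270 in DESeq2. Peaks at 6 h numbered 159 and troughs 191 without the block, and 183 to 304 and 141 to 295 with a mouse or library left out, the lowest without mouse WT 3 and mouse WT 4. Without mouse WT 4 there were 202 peaks, without WT 3 162 troughs, without the 6 h library of WT 3 208 peaks and 163 troughs, and without that of WT 4 190 troughs.

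Of 221 named genes called, 191 stayed called in every alternative that tested them, and 30 lost the call in at least 1, 22 of them without the block, Aim2 included. Sign changes touched only genes that were not called, among those reported here. Cd3e ranged from -0.0642 to 0.0503 over the fits that left out a mouse or library, and was -0.0159 with RLE size factors, -0.0159 in DESeq2. Max ranged from -0.0641 to 0.13 over the fits that left out a mouse or library, and was -0.0144 with RLE size factors, -0.0145 in DESeq2. Psmb1 ranged from -0.0284 to 0.0422 over the fits that left out a mouse or library, and was -0.0230 with RLE size factors, -0.0229 in DESeq2. Mx1 ranged from -0.12 to 0.14 over the fits that left out a mouse or library, and was -0.0193 with RLE size factors, -0.0176 in DESeq2. Hba-a1 ranged from -0.66 to 0.44 over the fits that left out a mouse or library, and was 0.0092 with library totals only. Hbb-bs ranged from -0.68 to 0.25 over the fits that left out a mouse or library. Of 41 list medians, 9 changed sign in at least 1 alternative. The cause of these changes was not tested. A gene under 3 counts, which is 0.133 to 0.155 CPM over the 6 libraries, cannot be told from one with no transcript.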
